A study of Hypsibius exemplaris with 24 samples.

Results

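Whole *Hypsibius exemplaris*, a freshwater tardigrade, had been exposed to bleomycin and then left to recover for 24 h, and their transcripts were set against those of unexposed animals to find what had not returned to the unexposed level. The comparison took 6 of the 24 RNA libraries of the series, chosen by their labels: the 3 libraries frozen 24 h after the exposure and the 3 control libraries. Animals of the 24 h group had spent 24 h in 100 µM bleomycin in mineral water, were then washed, fed the green alga *Chlorella* on agar at 18 °C, and frozen 24 h later. Control animals spent the same 24 h of exposure in mineral water alone and were frozen at its end. Bleomycin, the wash, the agar, the food and a day of elapsed time thus differ together between the groups and cannot be told apart. All groups held pools of 50 whole animals of the same laboratory culture, so a library averages animals and tissues. The remaining 18 libraries, 3 at each of 0, 1, 3, 6, 9 and 12 h after the exposure, entered the estimate of the spread and are quoted only to place the 24 h values in time.

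Bleomycin is a glycopeptide that binds iron and, with oxygen, cuts single and double strands of DNA. Cells answer such breaks by raising proteins that join broken ends, copy from an intact template or bind the damaged DNA, and tardigrades are known for surviving DNA damage that kills most animals. In these animals transcripts for repair proteins are known to rise strongly after such damage, and a return to the unexposed pattern is one sign by which recovery is followed. The deposited table gives transcripts by identifier only and does not pair them with gene names, so no function is given to a transcript here and no tissue markers were examined. An identifier such as BV898_04654.t02 stands for transcript t02 of locus BV898_04654.

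The deposited unit is TPM, a length-corrected share of each library's transcripts. It carries no depth, so the depth behind a value is unknown and counting error cannot be given. To compare libraries, a scale factor was taken out of each, which gives scaled TPM, and a fold change is the difference between group means of log2(scaled TPM + 1), 24 h minus control. On this scale the change of a low transcript is understated. Of 20853 transcripts, 16490 reached 1 TPM in at least 3 libraries and were tested. Taken over transcripts, which are no independent replicates, Pearson's r was 0.937 to 0.968 among 24 h libraries, 0.898 to 0.960 among controls and 0.751 to 0.899 across the groups. In each group 1 library stood apart: replicate 2 at 24 h lay nearer to the controls than the other 24 h libraries did (0.867, 0.799 and 0.899 with control replicates 1, 2 and 3), and control replicate 2 lay farther from the 24 h libraries than the other controls did. The scale factors were 0.883, 1.07 and 0.877 at 24 h and 1.17, 1.14 and 1.18 in the controls.

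Animals 24 h after bleomycin had a transcript pattern far from that of the controls. Of the 16490 transcripts tested, 4149 (25.2%) were higher at 24 h and 3626 (22.0%) were lower, so 7775 (47.1%) differed (limma moderated test, Benjamini-Hochberg adjusted p under 0.05). In RNA of whole animals, fewer cells of a type and less RNA per cell cannot be told apart. By median, rises measured 1.37 and falls -1.29 as log2 fold changes, and all transcripts tested 0.04. Unscaled TPM gave 3164 rises and 4577 falls, as log2 fold changes then shifted by a median of -0.28. With quantile normalization there were 3799 rises and 3948 falls, so which direction was the commoner depended on the scaling. The 24 h and control libraries did not overlap for 8552 transcripts, 51.9% of those tested.

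Most of these differences could not be placed beyond 2-fold. A stricter test against a 2-fold change (limma treat, adjusted p under 0.05) called 877 transcripts higher by more than 2-fold (5.32%) and 656 lower (3.98%), 1533 in all (9.30%). Unscaled TPM turned that balance to 506 higher and 929 lower, and quantile normalization to 741 higher and 777 lower. In the other direction, the 95% confidence interval of the fold change lay wholly within 2-fold of the control for 3751 transcripts (22.7%), taken transcript by transcript with no adjustment over transcripts. That count was 8435 with a pseudocount of 5, 2684 with a pseudocount of 0.1, and 6910 with no filter on low values. The 3751 included 618 of the 3113 transcripts that averaged under 2 scaled TPM. The interval is that of log2(scaled TPM + 1), so the TPM of a low transcript can differ by more than 2-fold. Of the 3751, 373 (2.26% of those tested) were also called, a difference smaller than 2-fold on this scale. A further 5869 transcripts (35.6%) were called with an interval that did not settle their size, and 5337 (32.4%) were neither called nor held within 2-fold, so their return is undecided. The count of 1533 rests on single libraries. With control replicate 2 left out it was 742. Leaving out 24 h replicate 1 gave 840, leaving out 24 h replicate 3 gave 839, and leaving out 24 h replicate 2 gave 2004. A fit of the 6 libraries alone gave 569.

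**Figure D1:**
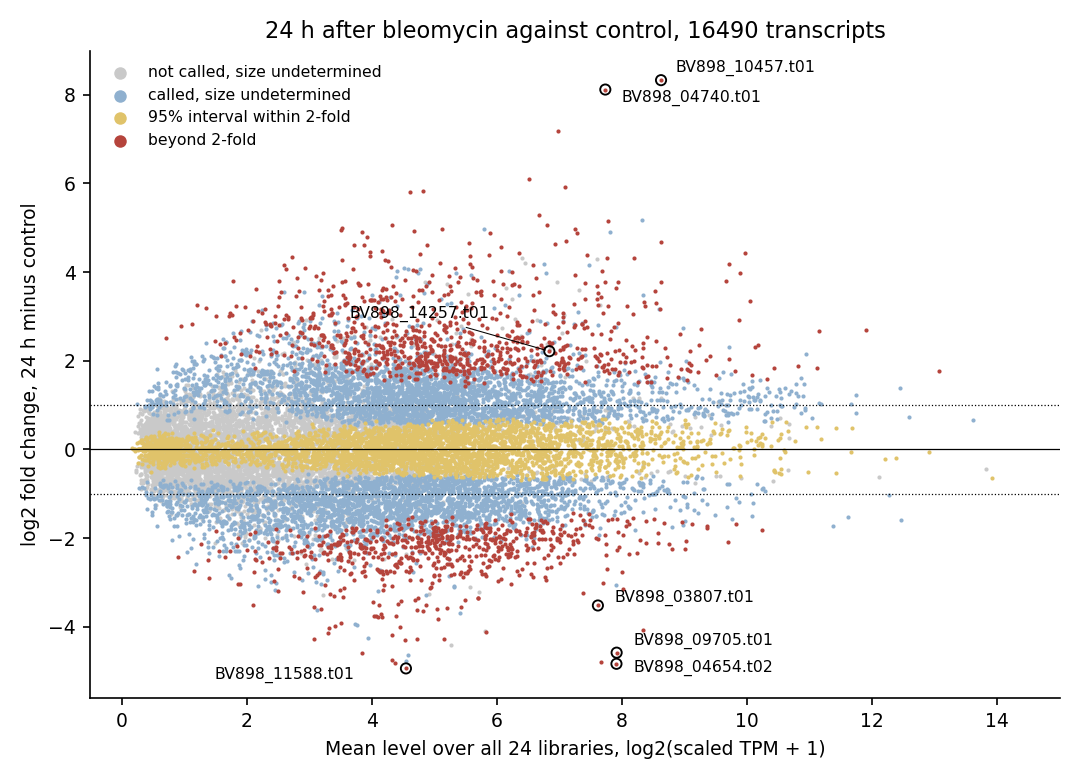
Each point is a transcript, with its mean level over all 24 libraries on the x axis, as log2(scaled TPM + 1), and its log2 fold change at 24 h minus control on the y axis. Red points are the 1533 transcripts beyond 2-fold, yellow points the 3751 with a 95% interval within 2-fold (dotted lines), and blue points called transcripts whose size is not settled. Circles mark named transcripts.

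Changes of at least 4-fold with an adjusted p under 0.05 (limma) numbered 884 rises (5.36%) and 609 falls (3.69%). At 16-fold there were 68 rises (0.412%) and 19 falls (0.115%). These splits were not recomputed with another scaling, and the balance beyond 2-fold given above turned with it. The 877 transcripts beyond 2-fold above control held 15.7% ± 1.61 of all TPM at 24 h and 3.97% ± 1.07 in the controls (SD, n = 3 each). The 656 below it held 1.70% ± 0.589 at 24 h and 9.27% ± 1.74 in the controls (SD, n = 3 each). All 4149 risen transcripts together held 57.9% ± 5.44 at 24 h and 28.3% ± 3.48 in the controls, and the 3626 fallen ones 13.0% ± 3.82 at 24 h and 37.2% ± 4.64 in the controls (SD, n = 3 each). The sets were chosen on this contrast, so these shares describe their size and test nothing.

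The 2 largest rises were those of transcripts that were almost absent from unexposed animals. BV898_10457.t01 was at 514, 209 and 623 scaled TPM in 24 h replicates 1, 2 and 3, against 1.04 in control replicate 1 and a listed 0 in control replicates 2 and 3. Every 24 h library lay far above every control, and replicate 2 was the lowest of the 24 h libraries. The fit gave a log2 fold change of 8.33, standard error 0.34 (limma, adjusted p = 9.39e-13). BV898_04740.t01 was at 459, 175 and 514 scaled TPM at 24 h, against a listed 0 in control replicates 1 and 2 and 0.953 in control replicate 3. It had the same order of 24 h libraries, with replicate 2 lowest. The fit gave a log2 fold change of 8.12, standard error 0.35 (limma, adjusted p = 2.42e-12). Fitted on the 6 libraries alone, both transcripts had an adjusted p of 9.71e-05 (limma). With controls so near 0 the size depends on the pseudocount, and both fold changes ran between 6.05 and 10.8 on the log2 scale over the alternatives. Both transcripts also had the smallest p among rises in the test against 2-fold, and they led the rises among transcripts that averaged 100 scaled TPM or more at 24 h.

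Locus BV898_14257, which was singled out with its response in these data known, was still above its unexposed level. Its transcript BV898_14257.t01 was at 71.0, 38.6 and 82.4 scaled TPM in 24 h replicates 1, 2 and 3, against 9.03, 13.2 and 15.7 in control replicates 1, 2 and 3. The groups did not overlap, as was so for 51.9% of all transcripts tested, and the mean at 24 h was 5.06 times that of the controls. The log2 fold change was 2.21 with a 95% interval of 1.59 to 2.84 (limma, adjusted p = 6.75e-06), and in the test against 2-fold the adjusted p was 0.00779 (limma treat). From 12 h on it fell by 1.43 on the log2 scale (limma, adjusted p = 0.00295).

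**Figure D2:**
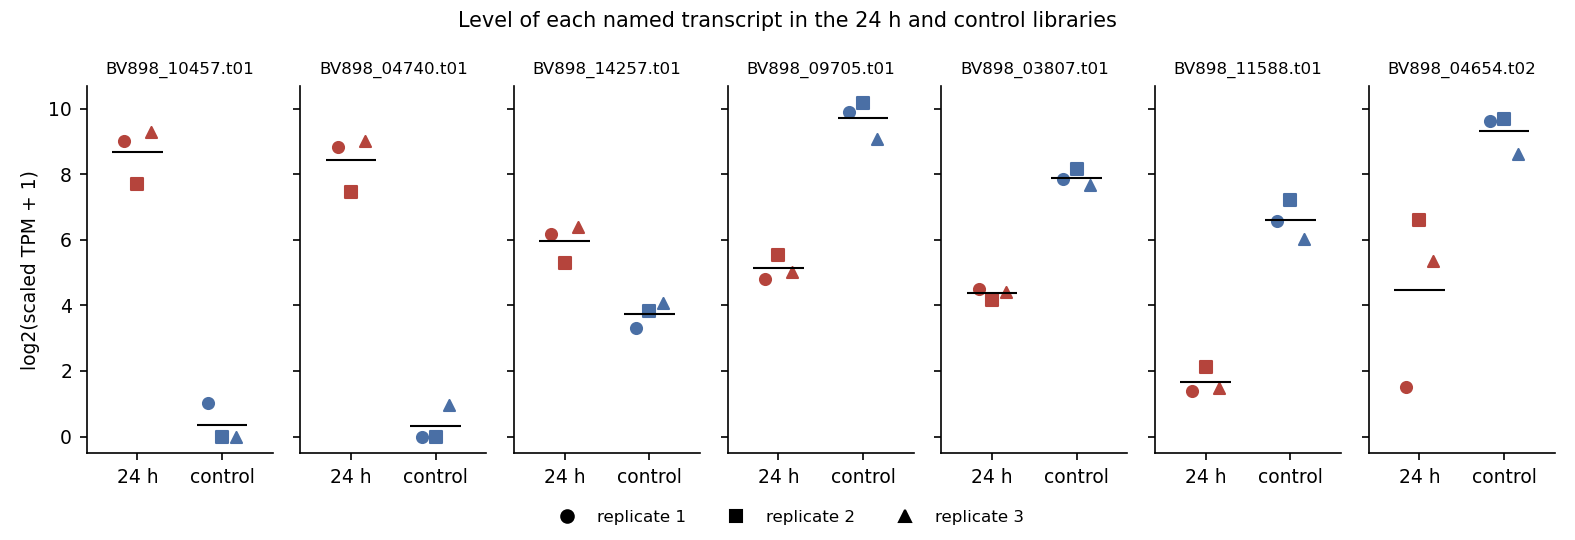
Level of 7 named transcripts as log2(scaled TPM + 1) in the 24 h libraries (red, left) and the control libraries (blue, right), with a marker shape per replicate and a line at the group mean. In every panel the groups do not overlap. That was a condition for choosing BV898_10457.t01, BV898_04740.t01, BV898_11588.t01 and BV898_04654.t02, and it held for 51.9% of all transcripts tested. Replicate 2 is the 24 h library nearest to the controls in 6 of 7 panels, BV898_03807.t01 being the exception.

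The falls with the smallest p in the test against 2-fold were those of abundant transcripts. BV898_09705.t01 was at 27.2, 45.9 and 31.6 scaled TPM in 24 h replicates 1, 2 and 3, against 955, 1162 and 534 in control replicates 1, 2 and 3. Its mean at 24 h was below that of the controls by a factor of 25.3, and the fit gave a log2 fold change of -4.58, standard error 0.26 (limma, adjusted p = 8.08e-11). BV898_03807.t01 was at 21.7, 17.1 and 20.4 scaled TPM at 24 h, against 229, 283 and 202 in the controls. The fit gave a log2 fold change of -3.52, standard error 0.21 (limma, adjusted p = 2.7e-10). The 24 h libraries were close together for BV898_03807.t01, and replicate 2 was the one farthest from the controls.

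The largest falls by fold change were those of BV898_11588.t01 and BV898_04654.t02. BV898_11588.t01 was at 1.61, 3.39 and 1.81 scaled TPM in 24 h replicates 1, 2 and 3, against 94.4, 147 and 64.8 in the controls, which gave -4.94 ± 0.37 as log2 fold change and standard error (limma, adjusted p = 5.13e-09). BV898_04654.t02 was at 1.87, 95.4 and 39.5 scaled TPM at 24 h, against 789, 831 and 396 in the controls. The 24 h libraries of BV898_04654.t02 were far apart, though all lay below every control. The fit gave a log2 fold change of -4.84, standard error 0.79 (limma, adjusted p = 6.67e-05), and -3.35 or -5.89 with 24 h replicate 1 or 2 left out. Fitted on the 6 libraries alone, BV898_04654.t02 had an adjusted p of 0.0462 (limma). As a single isoform it can share reads with others of its locus.

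The named transcripts reached their 24 h levels along different courses. BV898_10457.t01 averaged 379 ± 84.7 scaled TPM in 0 h animals and 449 ± 215 in 24 h animals (SD, n = 3 each), and no change between these times was called (log2 fold change 0.13, limma, adjusted p = 0.791). In between it reached 884 ± 334 at 12 h (SD, n = 3), and its log2 fold change from 12 to 24 h was -1.05 (limma, adjusted p = 0.0334). The 12 h scale factors, 0.8684, 0.8545 and 0.6644, had the lowest mean of all groups, which raises scaled values at 12 h. Before scaling it was at 671, 530 and 837 TPM at 12 h and 454, 224 and 547 at 24 h. BV898_04740.t01 had risen since 0 h, its log2 fold change from then to 24 h being 1.41 (limma, adjusted p = 0.00273). That rise was not steady, with 343 ± 103, 124 ± 18.6 and 405 ± 119.5 scaled TPM at 3, 9 and 12 h (SD, n = 3 each). BV898_09705.t01 averaged 608 ± 106, 102 ± 19.1, 33.5 ± 0.674 and 34.9 ± 9.81 scaled TPM at 0, 1, 12 and 24 h (SD, n = 3 each), so it was already low at 1 h and its means at 12 and 24 h were close. BV898_03807.t01 also had a course with more than 1 turn. Its means over 3 libraries were 392 ± 43.8, 54.9 ± 11.2, 58.5 ± 3.49, 268 ± 31.0, 307 ± 36.7, 222 ± 90.4 and 19.7 ± 2.36 scaled TPM (SD) at 0, 1, 3, 6, 9, 12 and 24 h, and 238 ± 41.2 in the controls. No difference from control was called for it at 6, 9 or 12 h, with log2 fold changes of 0.18, 0.37 and -0.16 (limma, adjusted p = 0.611, 0.224 and 0.567), while at 1 h its value was -2.10 (limma, adjusted p = 7e-07). Between 12 and 24 h it fell by 3.36 on the log2 scale (limma, adjusted p = 1.13e-08). Its low level at 24 h was thus reached after levels near the control at 6 to 12 h. The contrasts with control share the same 3 control libraries.

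**Figure D3:**
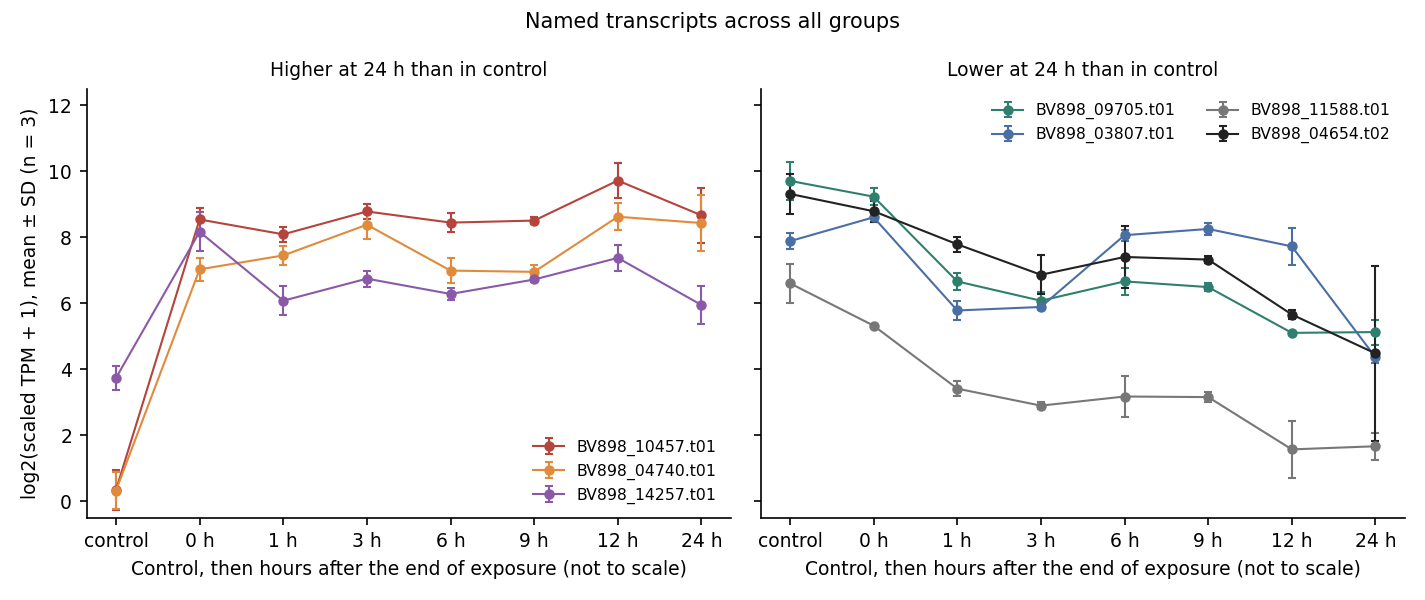
Mean ± SD (n = 3) of log2(scaled TPM + 1) for the named transcripts in the controls and at 0 to 24 h after the exposure, with time points evenly spaced. BV898_10457.t01, BV898_04740.t01 and BV898_14257.t01 lie above the controls at every time, and BV898_03807.t01 is low at 1, 3 and 24 h but near the controls at 6 to 12 h.

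The transcripts beyond 2-fold at 24 h were, by their median, near the control at the end of the exposure and moved away from it afterwards. Over the 877 higher transcripts, median log2 fold changes relative to control were 0.18, 0.94, 1.45, 1.05, 1.19, 1.97 and 2.35 at 0, 1, 3, 6, 9, 12 and 24 h. Over the 656 lower transcripts they were -0.34, -1.02, -1.61, -1.06, -1.22, -1.99 and -2.20 at the same times. Both sets were picked by their 24 h values, which favours an extreme at 24 h. By library, the median of the higher set lay 2.45, 2.08 and 2.59 above the control mean in 24 h replicates 1, 2 and 3, against 0, -0.34 and 0.37 in control replicates 1, 2 and 3. That of the lower set lay at -2.51, -1.79 and -2.24 at 24 h, against 0.09, 0.29 and -0.38 in the controls. For 619 of the 877 higher transcripts (70.6%) and 507 of the 656 lower ones (77.3%), replicate 2 was the 24 h library nearest to the controls. Among the controls, replicate 3 was displaced toward the 24 h libraries on both sets and replicate 2 away from them.

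**Figure D4:**
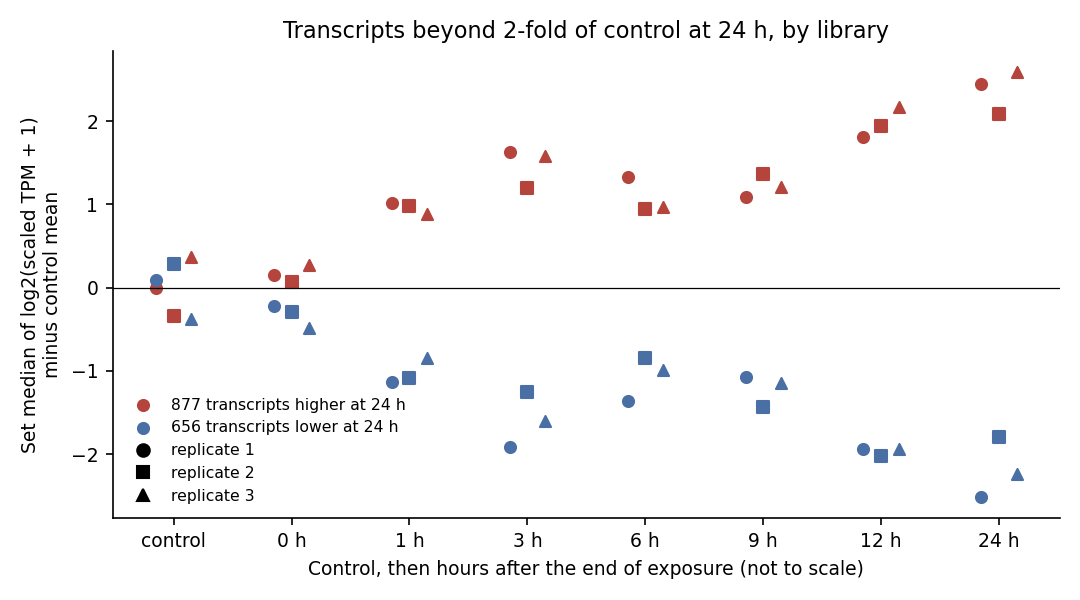
For each library, the median over the 877 transcripts higher (red) and the 656 lower (blue) by more than 2-fold at 24 h of log2(scaled TPM + 1) minus the control mean, with a marker shape per replicate. At 0 h the medians lie between -0.48 and 0.27, and at 24 h the red ones between 2.08 and 2.59 and the blue ones between -2.51 and -1.79.

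Transcripts picked by their response at the end of the exposure had another course. The 92 transcripts beyond 2-fold above control at 0 h (0.558% of those tested, limma treat) had median log2 fold changes relative to control of 3.28 when picked and 2.55 after 24 h, when their quartiles were 1.65 and 3.73. Measured directly between 0 and 24 h, the median was -0.81. The 48 transcripts beyond 2-fold below control at 0 h (0.291%) had medians of -3.56, 1.34, 0.17, 0.78, 0.42, 0.16 and 1.16 at 0, 1, 3, 6, 9, 12 and 24 h, with quartiles of -0.51 and 2.18 at 24 h. By their median, the transcripts that were low at 0 h lay above the control at every later time, by the least at 3 and 12 h and by the most at 1 and 24 h. Both sets were picked by their 0 h values, which favours an extreme at 0 h and smaller differences later. All contrasts with control used the same 3 control libraries.

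The number of transcripts near the control was smaller at 12 and 24 h than before. The interval lay within 2-fold of control for 7088 (43.0%), 6036 (36.6%), 4894 (29.7%), 6008 (36.4%), 5591 (33.9%), 3479 (21.1%) and 3751 (22.7%) transcripts at 0, 1, 3, 6, 9, 12 and 24 h. Beyond 2-fold were 140 (0.849%), 227 (1.38%), 423 (2.57%), 205 (1.24%), 250 (1.52%), 1927 (11.7%) and 1533 (9.30%) at these times (limma treat). The same controls serve all 7 contrasts. Set directly against 12 h, only 7 transcripts were higher (0.0424%) and 10 lower (0.0606%) by more than 2-fold at 24 h (limma treat). Against 0 h, 1177 (7.14%) were higher and 493 (2.99%) lower at 24 h by more than 2-fold. Counts other than those of 24 h against control were not refitted with single libraries left out or with another scaling. The 12 h libraries had the lowest mean scale factor of all groups, 0.796, so how far their counts rest on the scaling is unknown.

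How often a difference was called depended on the level of the transcript. Below 2 scaled TPM on average over all libraries, 403 of 3113 transcripts (12.9%) were called and 2092 were undecided. Between 20 and 100 scaled TPM 3275 of 4963 (66.0%) were called, and at 500 or more 223 of 318 (70.1%), with 20 undecided. In the 500-and-above group 168 were higher and 55 lower at 24 h, against 138 and 80 for unscaled TPM and 119 and 101 for quantile-normalized values. Of the 100 most abundant transcripts, 57 were higher and 15 lower at 24 h, 7 of them higher and 1 lower by more than 2-fold, and 34 were held within 2-fold. With unscaled TPM 44 of the 100 were higher and 23 lower, and with quantile normalization 30 were higher and 31 lower, so the direction among the most abundant transcripts is not settled. These other scalings by level were added after the data had been seen. Levels were averaged over all 24 libraries, most of them of exposed animals. The upper groups thus favour transcripts high after bleomycin, and the excess of rises in them is partly built in.

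**Figure D5:**
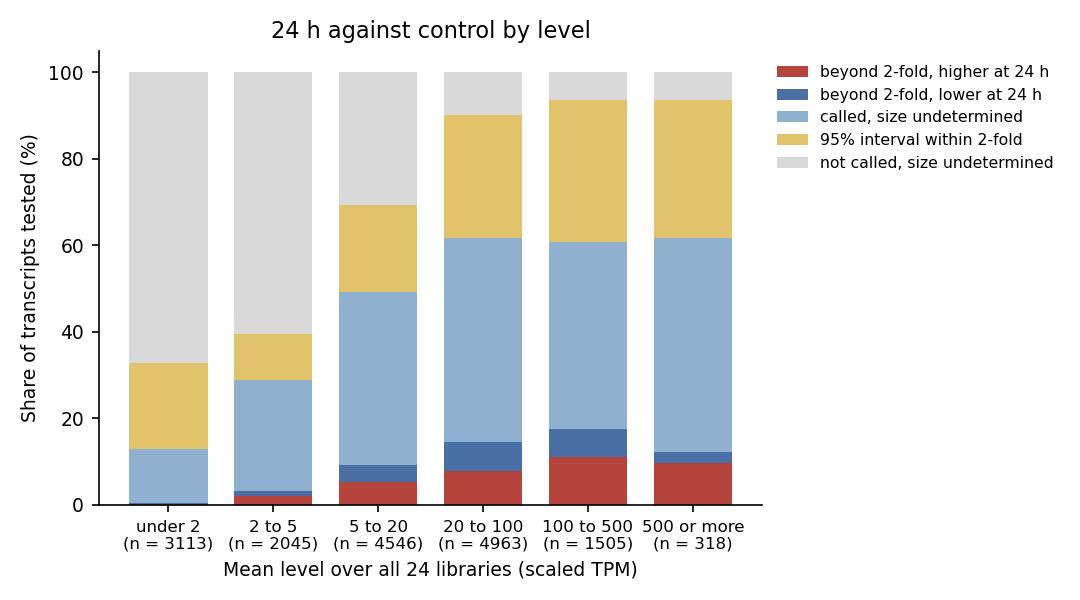
Bars give, for transcripts grouped by mean level over all 24 libraries in scaled TPM, the share (in percent of those tested) that was beyond 2-fold higher (red) or lower (dark blue) at 24 h, called with size unsettled (light blue), within 2-fold by the 95% interval (yellow) or neither (grey). The called share is 12.9% under 2 scaled TPM and 70.1% at 500 or more.

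The share of a library taken by its leading transcripts moved differently with the number of transcripts counted. The 100 most abundant over all libraries held 25.0%, 21.5% and 23.2% of TPM in 24 h replicates 1, 2 and 3, against 21.2%, 21.8% and 21.7% in the controls (exact two-sided permutation test, p = 0.3). With 3 libraries against 3 that test cannot give a p below 0.1. The 10 most abundant held 6.59% ± 0.563 at 24 h and 7.72% ± 0.267 in the controls, and the 1000 most abundant held 59.6% ± 3.30 at 24 h and 54.9% ± 0.602 in the controls (SD, n = 3 each). Neither pair of groups overlapped, and both reached that smallest value (exact two-sided permutation test, p = 0.1). Abundance was ranked over all 24 libraries, most of them of exposed animals. This ranking favours transcripts high after bleomycin, so a larger share at 24 h is partly built in. More transcripts were listed above 0 at 24 h, 17136 ± 47.6 against 16289 ± 414 in the controls (SD, n = 3 each), and the groups did not overlap (exact two-sided permutation test, p = 0.1). At a minimum of 1 TPM the order was the opposite, with 14129 ± 193 at 24 h and 14317 ± 207 in the controls (SD, n = 3 each, exact two-sided permutation test, p = 0.2). The surplus listed at 24 h thus lay among values under 1 TPM.

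Among the 16490 transcripts tested, only 99 were above 0 in all 3 libraries at 24 h and listed at 0 in all 3 controls. Their mean levels at 24 h ran from 0.209 to 33.0 scaled TPM with a median of 1.90, and 9 reached 5 in every 24 h library. The reverse, listed at 0 in all 3 libraries at 24 h and above 0 in all 3 controls, held for 48 transcripts, of which 5 reached 5 scaled TPM in every control. More transcripts were listed above 0 at 24 h than in the controls, which favours the 99 over the 48. Of the 99, 13, 33, 44, 40, 40 and 41 were above 0 in all 3 libraries at 0, 1, 3, 6, 9 and 12 h. Of the 48, 6, 10, 10, 9, 6 and 12 were listed at 0 in all 3 libraries at these times. Since the table may list 0 where an estimate failed, no fold change is given here for either set. They were not left out of the tests: 65 of the 99 and 41 of the 48 were called and count among the rises and falls above.

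In some loci the transcripts changed unlike each other on the log2 scale used. Of 620 loci with more than 1 tested transcript, 31 (5.00%) had isoforms whose fold changes differed from each other (limma diffSplice F test, adjusted p under 0.05). On this scale the change of a low isoform is understated. Isoforms of unlike level can thus differ in fold change with no change in their shares. The count of loci was 25 with a pseudocount of 0.1, 75 with a pseudocount of 5 and 223 with quality weights per library. In 12 of the 31 loci 1 transcript was called higher and another lower at 24 h, and in 19 the called transcripts went 1 way. In 12 loci a transcript was listed at 0 in every library of 1 group. The smallest p belonged to BV898_06598 (limma diffSplice, adjusted p = 3.6e-07). Its transcript t02 was at 4.46, 7.67 and 2.87 scaled TPM in 24 h replicates 1, 2 and 3 and was listed at 0 in all 3 controls and in the 18 other libraries. It was the only tested transcript above 0 in all 3 libraries at 24 h and listed at 0 in the other 21. Those 21 libraries add no spread for t02, so the fit can understate its spread at 24 h, and a listed 0 may be a failed estimate. The adjusted p of t02 was 1.3e-07 in the main fit and 0.0022 with the 6 libraries alone (limma). Its partner BV898_06598.t01 was at 8.94, 21.4 and 13.9 scaled TPM at 24 h, against 27.68, 25.97 and 25.48 in the controls (log2 fold change -0.88, limma, adjusted p = 0.0422). That call was lost without 24 h replicate 1 (adjusted p = 0.219), 24 h replicate 3 (0.0862), control replicate 1 (0.0963), control replicate 2 (0.0822) or control replicate 3 (0.0691), with the 6 libraries alone (0.0634), and with no filter on low values (0.0512). Its log2 fold change was -0.58 without 24 h replicate 1 and between -0.90 and -0.84 in the other 6 of these fits. Transcript t02 thus made up 25.6% ± 8.12 of the locus at 24 h, against a listed 0% in the controls (SD, n = 3).

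BV898_12671 had the next smallest p (limma diffSplice, adjusted p = 7.14e-07). Its transcript t01 was at 8.65, 4.68 and 15.3 scaled TPM at 24 h and listed at 0 in all 3 controls, and among the other libraries it was above 0 only in 1 h replicate 1, at 2.74. Here too the listed zeros add little spread to the fit. The adjusted p of t01 was 1.64e-06 in the main fit and 0.00154 with the 6 libraries alone (limma). Its transcript t02 was at 9.16, 12.3 and 8.26 scaled TPM at 24 h, against 13.5, 15.5 and 9.56 in the controls. Its log2 fold change of -0.34 did not pass the test (limma, adjusted p = 0.307), and the 95% interval lay within 2-fold. The share of t01 in the locus ran from 27.6% to 64.9% between the 24 h libraries. The estimation divides reads among isoforms of a locus, so levels of single isoforms are uncertain.

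Over the 8 group means of log2(scaled TPM + 1), the transcripts most like BV898_10457.t01 were BV898_09437.t01 (Pearson r = 0.996) and BV898_02011.t01 (r = 0.994). BV898_09437.t01 averaged 293 ± 77.9 scaled TPM at 24 h and 22.1 ± 2.21 in the controls, and BV898_02011.t01 averaged 13.5 ± 2.98 at 24 h and 0.528 ± 0.370 in the controls (SD, n = 3 each). Those most like BV898_11588.t01 were BV898_01949.t01 (r = 0.995) and BV898_14748.t01 (r = 0.992). BV898_01949.t01 averaged 11.9 ± 2.27 scaled TPM at 24 h and 84.4 ± 42.9 in the controls, and BV898_14748.t01 averaged 9.18 ± 1.92 at 24 h and 50.9 ± 6.89 in the controls (SD, n = 3 each). The group means share libraries and scaling, so these values describe likeness over the 8 group means only. BV898_10457.t01 averaged 0.348 scaled TPM in the controls, so its r values can rest largely on the step from control to bleomycin. Between 0 and 24 h its means ran from 274 to 884 scaled TPM. Those of BV898_09437.t01 ran from 216 to 396, and those of BV898_02011.t01 from 9.66 to 14.96. Likeness over the times after bleomycin alone was not tested.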

How the data were processed

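RNA from pools of whole animals was sequenced in 24 libraries. The deposited values are TPM per transcript. RSEM 1.2.26, DESeq2 1.22.2, FastQC 0.11.3 and Bowtie2 2.2.9 are named, without roles, per the submitters' processing notes. Neither build nor annotation is stated (both not given in the sources used here), and no batch or date is, so no within-batch values could be had. Every library has the same TPM sum within rounding, and depth is unknown.

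TPM were divided by each library's median ratio to the geometric mean over 12190 transcripts above 0 in all libraries. Transcripts reaching 1 TPM in 3 or more libraries entered, and log2(scaled TPM + 1) was fitted with limma 3.58.1 in R 4.3.3, with 1 mean per group over all 24 libraries (eBayes, trend and robust, two-sided, Benjamini-Hochberg over transcripts within a contrast, threshold 0.05). limma treat tested against a log2 change of 1, and diffSplice compared isoforms. The 24 h and control replicates were described by the submitters as biological. The p-values rest on the spread between pools within groups, pooled over all 24 libraries and not only those of the 24 h and control groups. The procedure was tested on simulated data. Plots used matplotlib 3.10.9 (Python 3.11.15).

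Named transcripts are the 2 largest rises and falls with an adjusted p under 0.05, no overlap and, in the higher group, a mean of 5 scaled TPM or more (6674 qualified), the same at 100 (1708 qualified), the 2 rises and 2 falls with the smallest treat p, the 2 loci with the smallest isoform p, BV898_14257, and those most like the largest rise and fall. Lists of genes by function had been drawn up, but could not be matched without names. The comparison, members and lists were chosen with earlier results of these data known. Alternatives were scaling, pseudocount, filter, locus sums, quality weights, replicate number, spread settings, the 6 libraries alone and leaving out each library.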

Additional observations from a re-analysis of the deposited data

How the results depend on the processing

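Counts of called transcripts stayed within 1.5 times the reported 7775 under all alternatives run, among them 7807 with the replicate number as a block and 11168 with quality weights. The replicate numbers were not used as pairs: deviations of same-numbered 24 h and control libraries from their group means correlated at -0.119, 0.0378 and 0.145, and not every library correlated best with its own number. The count beyond 2-fold, reported as 1533, was 932 with a pseudocount of 5, 3836 with quality weights and 569 with the 6 libraries alone. The count held within 2-fold, 3751, was 8435 with a pseudocount of 5 and 2684 with a pseudocount of 0.1. It was 6910 without a filter, which adds transcripts near 0. The 31 loci whose isoforms differed in fold change became 25 with a pseudocount of 0.1, 75 with a pseudocount of 5 and 223 with quality weights. Why the weights moved these counts was not tested.

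Leaving out 1 library at a time gave 6553 to 8006 called, 742 to 2004 beyond 2-fold, 2792 to 3350 within it and 24 to 45 loci. The difference in the share of the 100 most abundant was then 0.806 to 2.55 percentage points, and that in transcripts listed above 0 was 617 to 1017. The share of the 10 most abundant had the opposite sign, -1.13 percentage points, while that of the 1000 most abundant differed by 4.74 percentage points. Transcripts of at least 1 TPM also had the opposite sign, -188. For the named transcripts and loci, 262 of 270 alternatives gave the same call and, for transcripts, the same direction. Of the others, 7 lost the call of BV898_06598.t01, and with quality weights BV898_12671.t02 gained one (adjusted p = 0.0089). Most of the named were picked as extremes of the main fit, which favours such agreement. Changing the filter, the replicate block, the spread settings or fitting the 6 libraries alone left each log2 fold change as it was. Those alternatives could move only the p, and loci had no direction to compare. TPM keeps no depth, so what depth limits could not be assessed.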
